A study of Mus musculus with 12 samples.

Results

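The major urinary protein genes (Mup) are a family of lipocalin genes that lie as a tandem array of near copies on mouse chromosome 4. The copies described are 10 rows of the count tables, chosen by their symbols (Mup3, Mup4, Mup5, Mup9, Mup10, Mup11, Mup12, Mup14, Mup20 and Mup21) out of 43 Mup symbols, pseudogenes included, and 38926 gene symbols in all. They were picked because several of them switch between genotypes at ZT20, so that their genotype differences at ZT20, and the differences built on them, are given as a description with no test.

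RNA sequencing was carried out on 12 livers of 12-week-old mice, 1 liver per library and 3 livers in each of 4 groups. At each of ZT8 and ZT20, 1 group was wild-type and 1 was Rev-erbα-/-, where ZT counts the hours after lights on in a 12 h light and 12 h dark cycle. Rev-erbα-/- mice lack a functional Nr1d1 gene, which encodes the heme-binding clock repressor REV-ERBα, in all tissues. All mice were male, the labels give both genotypes a 129Ola/C57BL6 strain background, and the Rev-erbα-/- mice came from heterozygous pairs. Each liver is a different animal and the Mup copies that each animal carries were not measured here, so that for single copies a difference between the groups in expression and one in the copies carried cannot be told apart.

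MUPs are small secreted proteins with a barrel fold that holds volatile pheromones. In male mice they are made in bulk by hepatocytes, pass through the blood into the urine and release their ligands slowly from scent marks. Their transcription in liver is known to depend on the pulsatile growth hormone of males, acting through STAT5B, and also on androgens, thyroid hormone and glucocorticoids.

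The 10 genes lie on the minus strand of chromosome 4 in mm10. In order along the cluster they are Mup4 (chr4:59956804-59960710), Mup9 (chr4:60418046-60421952), Mup10 (chr4:60578260-60582199), Mup11 (chr4:60658466-60662411), Mup12 (chr4:60737383-60741326), Mup14 (chr4:61300023-61304000), Mup5 (chr4:61831319-61835233), Mup20 (chr4:62050234-62054158), Mup3 (chr4:62083476-62087342) and Mup21 (chr4:62147932-62150863). Mup9, Mup10, Mup11, Mup12 and Mup14 are near-identical, and any pair of them differs at 2 to 6 aligned coding bases, an identity of 98.9% to 99.6%. All other pairs of the 10 genes differ at 25 to 89 coding bases, an identity of 83.6% to 95.4%.

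A stretch of 75 coding bases in exon 1 shows how little separates the near-identical copies, with bases unlike the majority of the 5 in capitals:
Mup9: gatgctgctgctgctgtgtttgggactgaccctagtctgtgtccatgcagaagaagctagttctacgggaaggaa
Mup10: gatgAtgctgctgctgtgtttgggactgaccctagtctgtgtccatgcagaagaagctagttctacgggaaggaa
Mup11: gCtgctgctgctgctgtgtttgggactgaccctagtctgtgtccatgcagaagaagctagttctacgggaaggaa
Mup12: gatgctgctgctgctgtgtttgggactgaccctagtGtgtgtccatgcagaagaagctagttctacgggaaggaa
Mup14: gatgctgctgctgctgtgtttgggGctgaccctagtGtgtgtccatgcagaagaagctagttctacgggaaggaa
The 75 bases lie at chr4:60421807-60421881 in Mup9 and chr4:60662218-60662292 in Mup11, both on the minus strand. Reads from this stretch can be placed only by these 4 variable positions.

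In exon 2, by contrast, 75 bases of the same length are identical in these 5 copies, here written as Mup9, while the more distant copies carry several differences, in capitals:
Mup9: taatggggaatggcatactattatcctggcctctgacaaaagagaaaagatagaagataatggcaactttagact
Mup20: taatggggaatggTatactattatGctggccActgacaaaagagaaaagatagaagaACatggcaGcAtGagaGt
Mup5: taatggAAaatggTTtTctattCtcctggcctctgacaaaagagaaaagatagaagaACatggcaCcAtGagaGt
Mup3: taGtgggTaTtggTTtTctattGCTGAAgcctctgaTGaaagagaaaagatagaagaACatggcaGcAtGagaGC
Mup21: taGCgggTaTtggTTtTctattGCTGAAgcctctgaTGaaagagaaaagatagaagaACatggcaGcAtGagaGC
Mup20 differs from the shared sequence at 9 of these positions, Mup5 at 12, Mup3 at 21 and Mup21 at 22. Among the copies shown, this stretch sets Mup20, Mup5 and the pair of Mup3 and Mup21 apart from the near-identical copies, and it does not tell those 5 from each other.

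Only uniquely mapped reads were counted, so the share of each transcript that is unique decides what its row can hold. Of all windows of 75 bases, the longest read length, 93.2% in Mup3, 99.6% in Mup4, 95.4% in Mup5 and 89.7% in Mup21 occurred in no other annotated gene. For Mup20 the share was 56.4%, and its other windows matched the pseudogene Mup-ps19. It was 19.7% for Mup12, 14.3% for Mup11, 14.2% for Mup10, 11.3% for Mup9 and 5.41% for Mup14. In Mup9, Mup11 and Mup14, 0 windows differed by more than 2 bases from every other Mup transcript. The rows of these copies are therefore uncertain as levels of single genes.

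**Figure D1:**
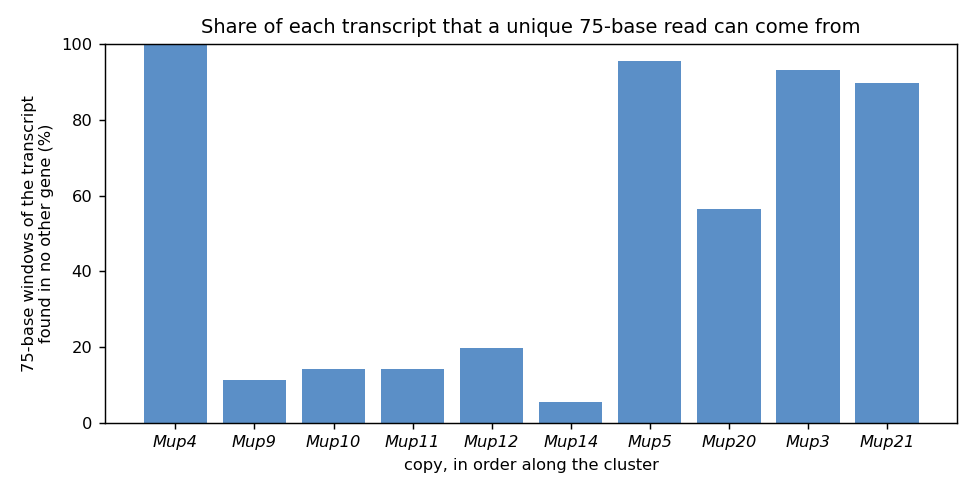
Share of 75-base windows of each transcript (y axis, percent) that occurs in no other annotated gene, for the 10 Mup copies in order along the cluster (x axis). Mup4, Mup5, Mup3 and Mup21 reach 89.7% or more, whereas Mup9, Mup10, Mup11, Mup12 and Mup14 stay at 19.7% or less.

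Of the 10 promoters, 7 were found in the RefSeq promoter table (GRCm38.p6), and all 7 hold the letters TATATAA, searched on both strands, which 3.24% of 32851 promoter windows of 300 bases contain. This motif was chosen after the promoters were seen, and the 7 belong to copies of 1 family, so nothing is read from this share. The 100 bases that end just after this motif, in capitals, are shown for 2 copies whose reads went in opposite directions at ZT20:
Mup9: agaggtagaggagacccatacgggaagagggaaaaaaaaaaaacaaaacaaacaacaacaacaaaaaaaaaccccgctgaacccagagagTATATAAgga
Mup11: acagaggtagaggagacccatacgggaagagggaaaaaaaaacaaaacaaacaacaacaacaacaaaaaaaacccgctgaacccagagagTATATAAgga
In the alignment of these windows, at chr4:60421974-60422073 and chr4:60662388-60662487 on the minus strand, 96 bases were identical, 1 was mismatched and 6 were gapped. TTCNNNGAA, the core that STAT5 binds, was found in 0 of the 7 windows and in 8.30% of all windows. AGAACA, a site of steroid receptors, was found in Mup3 and Mup21 and in 19.0% of all, and AGGTCA, a site of other nuclear receptors, in Mup4 and in 16.3% of all.

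Levels are given as CPM, that is reads per 1000000 counted reads after scaling of the library sizes, in the order of livers 1 to 3 of each group, and Rev-erbα-/- livers are also called knockout livers. Between 17641809 and 26060192 reads were counted on genes per library, so that the floor of 3 reads equals 0.117 to 0.167 CPM. Nr1d1 itself was at 129, 96.2 and 75.3 CPM in wild-type and 63.0, 71.9 and 80.6 CPM in Rev-erbα-/- livers at ZT8, and at 2.28, 1.86 and 2.15 CPM in wild-type against 3.57, 2.96 and 2.09 CPM in knockout livers at ZT20. Counts over the whole gene do not show the deleted part, so this gene does not check the genotypes. Hepatocyte markers such as Alb, at 41469 ± 9786 CPM in wild-type livers at ZT8 (mean ± SD, n = 3), were abundant. Of 5 hepatocyte markers, 0 passed between genotypes at either time in edgeR, with 4 at an unadjusted p below 0.05 at ZT8 and 0 at ZT20, while DESeq2 called 3 higher in knockout livers at ZT8. Among 22 tested markers of Kupffer, endothelial, stellate, cholangiocyte, lymphocyte and exocrine pancreas cells, Sox9 was past the threshold at ZT8 (4.17 ± 0.866 CPM in wild-type and 9.64 ± 2.65 CPM in Rev-erbα-/- livers, edgeR adjusted p = 0.00126), and 0 were at ZT20 (edgeR, with 4 at an unadjusted p below 0.05, and 2 by DESeq2). At ZT8, 0 of these markers were lower in Rev-erbα-/- livers in edgeR, but 4 were at an unadjusted p below 0.05 and 3 by DESeq2, among them 3 and 2 of the 5 tested Kupffer cell markers. The macrophage markers Emr1, Cd5l and Vsig4 had log2 differences of -0.61 (edgeR adjusted p = 0.0529), -0.49 (adjusted p = 0.149) and -0.47 (adjusted p = 0.161) at ZT8, and the median log2 difference was -0.47 over the 5 Kupffer cell markers and 0.42 over the 5 hepatocyte markers, whose part in the ZT8 results was not tested. A change in the number of hepatocytes and one in RNA per hepatocyte cannot be told apart in whole liver.

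Mup9 and Mup11 held most of the reads of the near-identical copies and mirrored each other at ZT20. Mup9 was at 789.8, 1267 and 943 CPM in wild-type and 2155, 2169 and 3502 CPM in Rev-erbα-/- livers at ZT8. At ZT20 it was at 956, 849 and 544 CPM in wild-type and at only 16.8, 10.3 and 7.96 CPM in Rev-erbα-/- livers. The Rev-erbα-/- livers were thus all above wild-type at ZT8 and all below it at ZT20, and the low group was that of Rev-erbα-/- livers at ZT20 alone.

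Mup11 was at 1302, 4993 and 6409 CPM in wild-type and 2083, 1524 and 2023 CPM in Rev-erbα-/- livers at ZT8. In wild-type livers at ZT20 it was at 11.9, 2.52 and 2.28 CPM, against 2221, 1375 and 1445 CPM in Rev-erbα-/- livers. Here the low group was wild-type at ZT20, while at ZT8 the genotypes overlapped because wild-type liver 1 was far below wild-type livers 2 and 3.

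Mup14 had the fewest unique windows of all 10 and followed Mup11. Its level was 86.5, 313 and 489 CPM in wild-type and 177, 152 and 212 CPM in Rev-erbα-/- livers at ZT8, and 0.837, 0.133 and 0.0895 CPM in wild-type against 337, 190.0 and 103 CPM in knockout livers at ZT20. The wild-type ZT20 libraries held 23 Mup14 reads together, the Rev-erbα-/- ZT20 libraries 15225.

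Mup12, less abundant, was likewise lowest in wild-type livers at ZT20. It was at 26.8, 37.0 and 39.1 CPM in wild-type against 40.2, 34.4 and 35.9 CPM in knockout livers at ZT8, and at 3.72, 2.74 and 2.46 CPM in wild-type against 71.3, 54.2 and 69.9 CPM in knockout livers at ZT20. The Rev-erbα-/- livers at ZT20 were here above every other liver.

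Mup10 followed Mup9 at a far lower level. It was at 1.19, 0.996 and 0.915 CPM in wild-type and 1.97, 2.89 and 2.99 CPM in Rev-erbα-/- livers at ZT8, at 1.86, 1.99 and 1.57 CPM in wild-type livers at ZT20, and at 0.0839, 0.0390 and 0 CPM in Rev-erbα-/- livers at ZT20. The last group rests on 2, 1 and 0 reads. The summed reads of wild-type, scaled to depth, were 43.3 times those of Rev-erbα-/- livers at ZT20, a description that rests on these few reads.

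Mup5, known from salivary glands, was near the detection limit in liver and is largely unique in sequence. It was at 0.597, 0.199 and 0.203 CPM in wild-type and 1.04, 0.667 and 2.01 CPM in Rev-erbα-/- livers at ZT8, and at 1.54, 1.37 and 0.760 CPM in wild-type against 0.0420, 0.0779 and 0.0445 CPM in knockout livers at ZT20. Like Mup9 and Mup10, it was lowest in Rev-erbα-/- livers at ZT20, where the 3 libraries held 1, 2 and 1 reads. The ratio of the summed reads of wild-type to Rev-erbα-/- livers, scaled to depth, was 21.9, again a description on few reads.

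Mup20 encodes darcin, the male pheromone protein that draws females to scent marks. It was at 616, 665 and 604 CPM in wild-type and 476, 400.5 and 499 CPM in Rev-erbα-/- livers at ZT8, and at 83.1, 97.1 and 111 CPM in wild-type against 641, 730.0 and 803 CPM in knockout livers at ZT20. Wild-type livers at ZT20 were below all others, and the wild-type livers at ZT8 lay above the Rev-erbα-/- livers of that time without overlap.

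Mup3 led all Mup symbols in 10 of 12 livers, Mup17 being ahead in wild-type ZT8 livers 2 and 3. Its level was 6616, 5479 and 5332 CPM in wild-type and 6863, 5736 and 5200.5 CPM in Rev-erbα-/- livers at ZT8, and 4862, 5098 and 5148 CPM in wild-type against 8134, 6577 and 6804 CPM in knockout livers at ZT20. The genotypes overlapped at ZT8 and did not at ZT20, where Rev-erbα-/- livers were higher.

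Mup21, the copy most like Mup3, was at 213, 98.3 and 36.9 CPM in wild-type and 244, 199 and 154 CPM in Rev-erbα-/- livers at ZT8, and at 270.1, 317 and 344 CPM in wild-type against 223, 164 and 142 CPM in knockout livers at ZT20. The 3 wild-type livers at ZT8 were spread over a wide range. Mup4, known from nasal and lacrimal tissue, had 0 or 1 read in each library, 8 reads in all 12, which is under the limit of detection in every group.

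**Figure D2:**
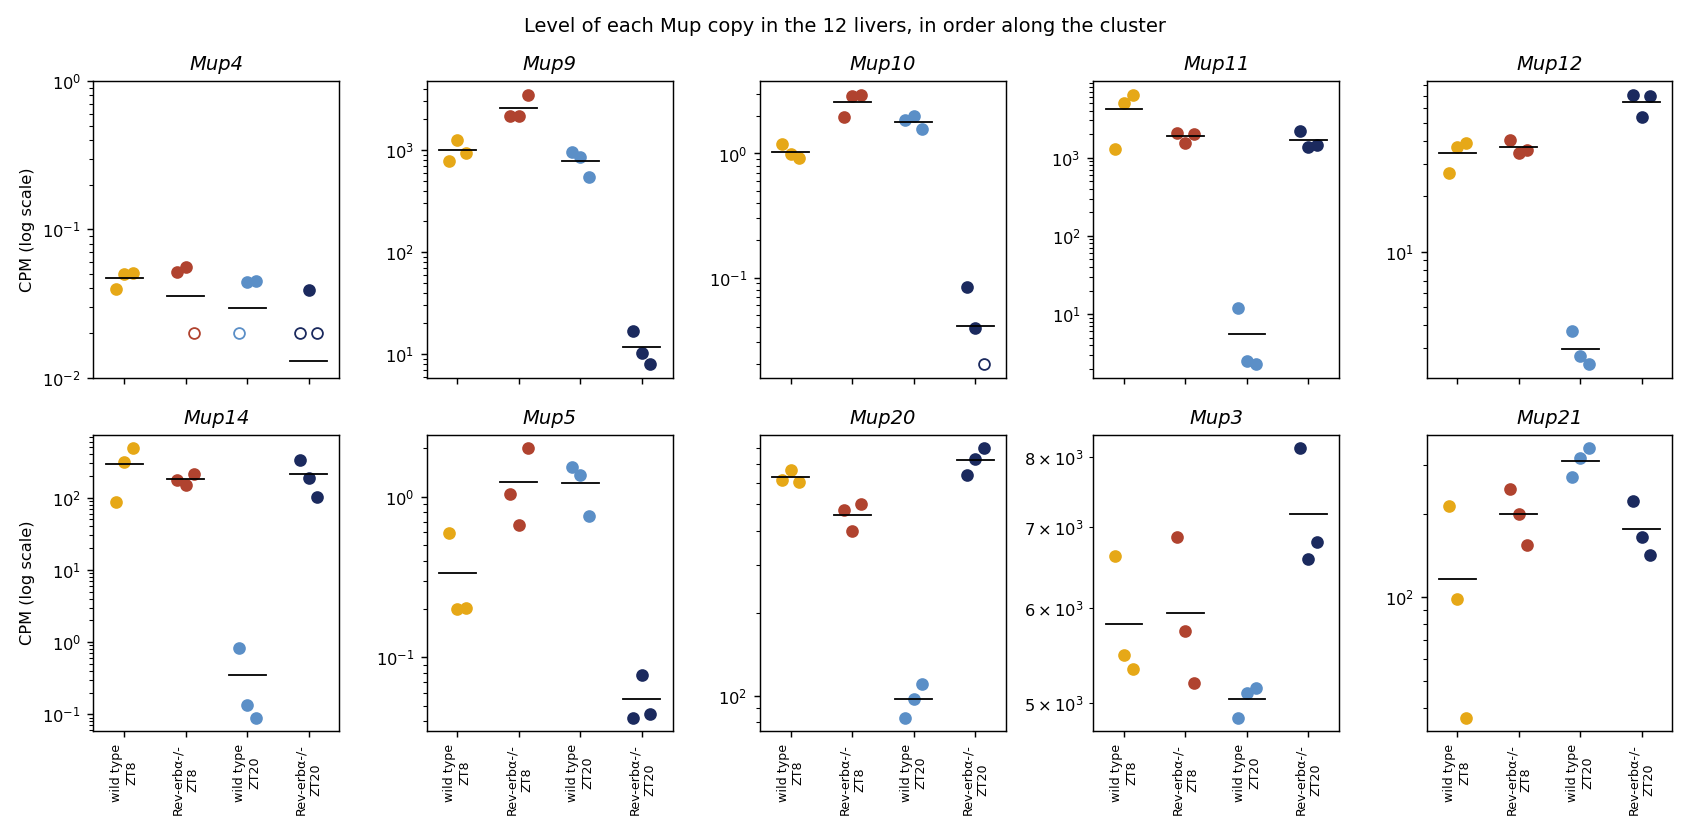
CPM of each Mup copy (y axis, log scale, own range per panel) in the 12 livers, grouped by genotype and time (x axis). Points are livers, lines are group means, and open points mark 0 reads drawn at 0.02 CPM. Mup9, Mup10 and Mup5 are lowest in Rev-erbα-/- livers at ZT20, whereas Mup11, Mup12, Mup14 and Mup20 are lowest in wild-type livers at ZT20.

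Per kb of transcript, the order of the mean levels in wild-type livers at ZT8 was Mup3 at 5904, Mup11 at 4553, Mup9 at 1157, Mup20 at 677, Mup14 at 319.8, Mup21 at 171, Mup12 at 37.0, Mup10 at 1.12, Mup5 at 0.360 and Mup4 at 0.0508 CPM per kb. Mup3 and Mup11 do not differ beyond the spread of these 3 livers. In wild-type livers at ZT20 the order was Mup3 at 5118, Mup9 at 906, Mup21 at 458, Mup20 at 104, Mup11 at 5.97, Mup12 at 3.21, Mup10 at 1.95, Mup5 at 1.32 and Mup14 at 0.382 CPM per kb. In Rev-erbα-/- livers at ZT20 Mup3 stood at 7288, Mup11 at 1806, Mup20 at 781 and Mup9 at 13.5 CPM per kb. Since the near-identical copies are counted on a small unique part only, their levels per kb can be understated. Reads of other copies placed on these rows would raise them instead, and neither was tested. Per 100 unique windows the order was another one, with Mup11 at 3471 ± 2161, Mup9 at 1124 ± 274, Mup3 at 685 ± 82.9, Mup14 at 643 ± 438 and Mup20 at 130.4 ± 6.75 CPM (mean ± SD, n = 3) in wild-type livers at ZT8. On this scale Mup9 stood at 880 ± 239.9 and Mup3 at 594 ± 17.99 CPM in wild-type livers at ZT20, and Mup11 at 1377 ± 385 and Mup3 at 846 ± 99.1 CPM in Rev-erbα-/- livers at ZT20. Which copy leads therefore depends on the scale.

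The contrast that chose the genes is Rev-erbα-/- against wild-type at ZT20. In the edgeR fit its log2 differences (± SE, n = 3 livers per group) were 9.22 ± 1.08 for Mup14, 8.25 ± 0.94 for Mup11, 4.45 ± 0.19 for Mup12, 2.90 ± 0.13 for Mup20 and 0.51 ± 0.13 for Mup3. They were -0.81 ± 0.52 for Mup21, -4.32 ± 0.66 for Mup5, -5.26 ± 0.46 for Mup10 and -6.06 ± 0.41 for Mup9. All 9 copies that passed the filter on low counts had groups that did not overlap, 5 with Rev-erbα-/- higher and 4 with Rev-erbα-/- lower, against 22.5% of the 14488 tested genes. A log2 difference of at least 1 in size was seen in 7 of the 9, against 3.46% of tested genes. Since the copies were picked for this difference, nothing is read from these shares. By size of the difference among all tested genes, Mup14 ranked 10, Mup11 12, Mup9 25, Mup10 30, Mup12 40, Mup5 42, Mup20 79, Mup21 728 and Mup3 1553. Without wild-type ZT20 liver 1, the log2 difference was 10.81 for Mup14 and 9.45 for Mup11, and without Rev-erbα-/- ZT20 liver 1 it was -6.09 for Mup10.

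Sums over copies differed less between genotypes at ZT20 than most single copies did. The 5 near-identical copies together stood at 974, 857 and 551 CPM in wild-type and 2646, 1629 and 1626 CPM in Rev-erbα-/- livers at ZT20, a ratio of the means of 2.48. All 10 copies together stood at 6191, 6369.6 and 6154 CPM in wild-type against 11643, 9101 and 9375 CPM in knockout livers, a ratio of 1.61. Of the reads on the 10 copies, Mup3 alone held 80.7% in wild-type and 71.6% in Rev-erbα-/- livers at ZT20 on average. Since the copies are counted on unique parts of unlike size, the sums are of counted reads and do not measure the output of the family. Over all 43 Mup symbols the sums were 9118, 9064 and 8476 CPM in wild-type against 18346, 13611 and 13406 CPM in knockout livers, a ratio of 1.70, and the groups did not overlap.

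The genotypes at ZT8 were not used to choose the genes and were tested. In Rev-erbα-/- livers 3 copies rose and 1 fell, that is 4 of the 9 copies tested, against 8.45% of all tested genes past the threshold in this contrast (4.4% higher and 4.04% lower). Mup9 and Mup10 differ at only 2 of 543 aligned coding bases, so their rows are not independent, and nothing is read from the share. Mup10 rose by 1.32 ± 0.27 (log2 ± SE, edgeR adjusted p = 0.00636), Mup9 by 1.38 ± 0.33 (adjusted p = 0.0323) and Mup5 by 1.83 ± 0.49 (adjusted p = 0.0319). Mup20 changed by -0.45 ± 0.12 (edgeR adjusted p = 0.028). Each of these calls was made on groups of 3 livers that did not overlap, as in 25.6% of all tested genes. In these 4 copies the genotypes were apart at both times and in opposite directions, as in 3.17% of all tested genes, a description that holds ZT20 values.

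The other 5 copies did not pass at ZT8. The log2 difference was -1.17 ± 0.68 for Mup11 (edgeR adjusted p = 0.347), -0.71 ± 0.63 for Mup14 (adjusted p = 0.553), 0.78 ± 0.53 for Mup21 (adjusted p = 0.428), 0.11 ± 0.15 for Mup12 (adjusted p = 0.736) and 0.03 ± 0.13 for Mup3 (adjusted p = 0.919). The median over the 9 copies was 0.11, beside 0.0018 over all tested genes. Summed over all 43 Mup symbols, the level was 15189.7, 33741 and 39894 CPM in wild-type and 21194, 18938 and 24836 CPM in Rev-erbα-/- livers at ZT8 (exact permutation test, two-sided, p = 0.4, n = 3 against 3, smallest possible p = 0.1).

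The calls at ZT8 depended on single libraries, except that of Mup10, which was past the threshold in every alternative. The Mup10 row held 68 reads in wild-type and 151 in Rev-erbα-/- libraries at ZT8, far fewer than the Mup9 row. Whether reads of other copies fell on the rows of Mup10 and Mup5 was not tested. Mup9 was lost without any 1 of the 6 ZT8 livers, with edgeR adjusted p from 0.0502 (without wild-type liver 2) to 0.118 (without wild-type liver 3). Mup5 was lost without wild-type ZT8 liver 2 (0.136) or 3 (0.111) or without Rev-erbα-/- ZT8 liver 3 (0.138), and its log2 difference was 2.60 without wild-type ZT8 liver 1. Mup20 was lost without wild-type ZT8 liver 2 (0.124) or Rev-erbα-/- ZT8 liver 1 (0.0516) or 2 (0.139). Wild-type ZT8 liver 1 also stood apart from livers 2 and 3 in the alignments to more than 1 place per counted read (1.76, against 2.89 and 3.28) and in the share of Mup among counted reads (1.58%, against 3.45% and 4.08%), and the part of these in the results was not tested.

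**Figure D3:**
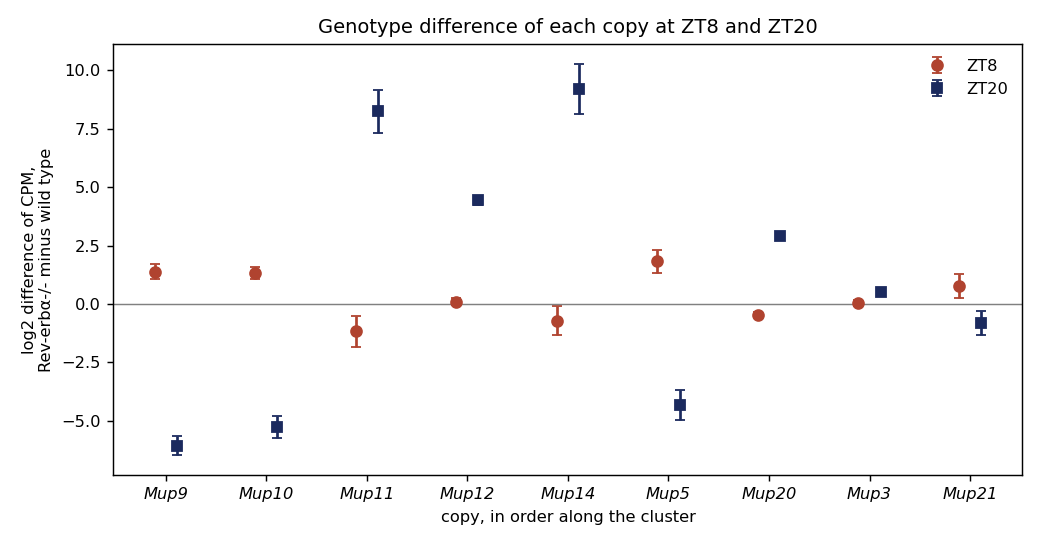
Log2 difference of CPM between Rev-erbα-/- and wild-type livers (y axis, ± SE from the edgeR fit, n = 3 per group) for the 9 tested copies in order along the cluster (x axis), at ZT8 (circles) and ZT20 (squares). Mup9, Mup10 and Mup5 lie above 0 at ZT8 and between -4.32 and -6.06 at ZT20, and Mup11 and Mup14 lie between -1.17 and -0.71 at ZT8 and above 8 at ZT20.

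Averaged over both genotypes, 7 of the 9 copies had a log2 change of -1 or lower from ZT8 to ZT20, as did 2.33% of all tested genes. The low values that chose the copies enter the mean of ZT20, so this change is a description too, with no test, and nothing is read from the share. The log2 change was -4.87 ± 0.57 (± SE) for Mup11, -4.75 ± 0.63 for Mup14, -4.08 ± 0.26 for Mup9 and -2.50 ± 0.29 for Mup10. It was -1.35 ± 0.12 for Mup12, -1.28 ± 0.46 for Mup5 and -1.02 ± 0.08 for Mup20, against 0.03 ± 0.09 for Mup3 and 0.62 ± 0.37 for Mup21. The median of the 9 was -1.35, beside -0.00086 over all tested genes.

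The averaged change was carried by 1 genotype in most copies. Within wild-type, the log2 change from ZT8 to ZT20 was -9.58 for Mup11, -9.71 for Mup14, -3.53 for Mup12 and -2.70 for Mup20. Within Rev-erbα-/- it was -0.16, 0.22, 0.82 and 0.66 for the same copies. The pair of values, wild-type first, was -0.35 and -7.80 for Mup9, 0.79 and -5.79 for Mup10, and for Mup5 1.79 and -4.36. These values share the ZT20 libraries with the choice of the genes and have no test. Without wild-type ZT20 liver 1, the averaged change was -5.47 for Mup11 and -5.54 for Mup14.

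The reads on the 21 numbered Mup symbols were divided among the copies in a different way in each group. Mup3 took 52.1%, 19.1% and 15.3% of them in wild-type against 41.1%, 37.1% and 25.6% in Rev-erbα-/- livers at ZT8, and 70.0%, 72.4% and 77.4% against 50.0%, 55.3% and 57.5% at ZT20. Mup9 took 4.45% ± 1.76 (mean ± SD, n = 3) in wild-type and 14.7% ± 2.25 in Rev-erbα-/- livers at ZT8, and 11.3% ± 2.86 against 0.0858% ± 0.0180 at ZT20. Mup11 took 15.4% ± 4.44 and 10.8% ± 1.49 at ZT8, and 0.0803% ± 0.0784 against 12.5% ± 1.07 at ZT20. The 11 numbered symbols that are not among the 10 took 46.5% ± 19.6 in wild-type and 34.8% ± 7.48 in Rev-erbα-/- livers at ZT8, and 9.29% ± 1.69 against 24.2% ± 3.90 at ZT20. Both sides of the switch thus stood at under 0.1% on average in the group where they were low. As shares of 1 total, these values move against each other by construction.

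**Figure D4:**
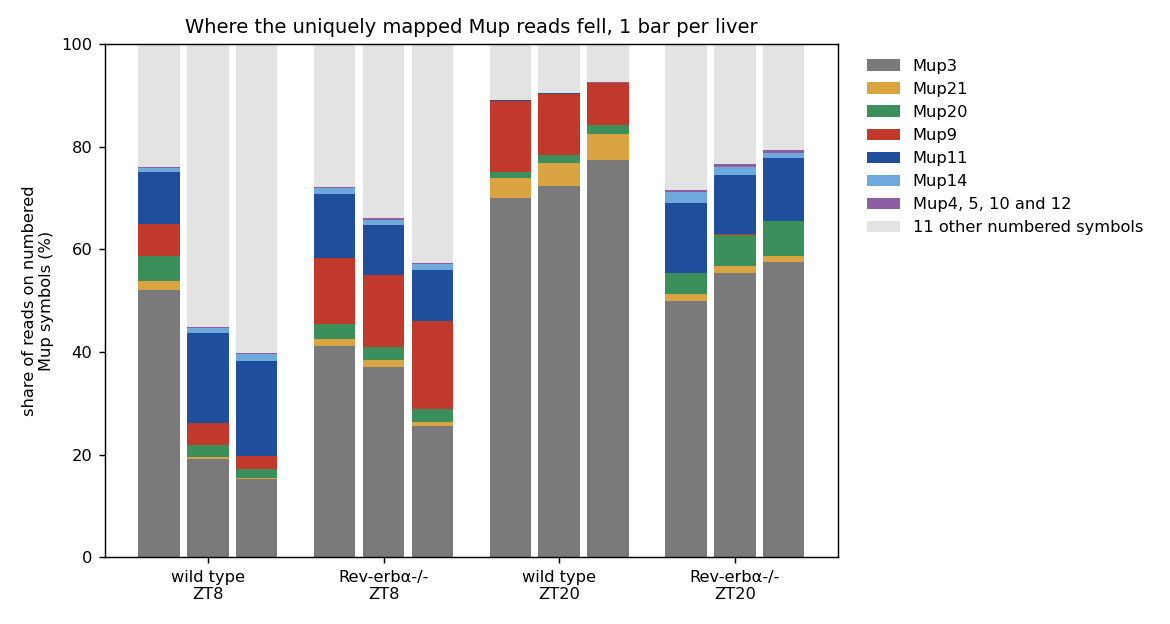
Share of the reads on the 21 numbered Mup symbols (y axis, percent) that fell on each copy, 1 bar per liver, grouped by genotype and time (x axis). The Mup9 segment is all but absent in the 3 Rev-erbα-/- livers at ZT20 (0.0858% on average) and the Mup11 segment in the 3 wild-type livers at ZT20 (0.0803%).

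Across the 12 livers, 7 of the 9 tested copies fell into 2 patterns. The log2 levels of Mup11, Mup12, Mup14 and Mup20 were alike, with Pearson's r between 0.943 (Mup11 and Mup20) and 0.994 (Mup11 and Mup14), and those of Mup5, Mup9 and Mup10 between 0.748 (Mup5 and Mup9) and 0.951 (Mup9 and Mup10). Between Mup9 and Mup11, r was -0.12. Mup3 and Mup21 stood outside both, Mup3 with r between 0.520 and 0.699 to the first set, and Mup21 with r between -0.0043 and 0.458 to the second. These values describe 12 libraries that share the 4 groups, and Mup9, Mup10, Mup11, Mup12 and Mup14 also share sequence. They also hold the ZT20 values that chose the copies, so the 2 patterns largely restate that choice.

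Other Mup rows also differed between genotypes at ZT20, in both directions. They are not independent of the 10 copies, since Mup1, for example, shares 650 of the 852 windows of Mup12. Mup7 was at 378, 350.2 and 269 CPM in wild-type and 4000.4, 2515 and 2201 CPM in Rev-erbα-/- livers at ZT20, and Mup1 at 9.26, 11.3 and 8.99 CPM in wild-type against 104, 39.7 and 32.9 CPM in knockout livers. Of the 33 Mup symbols that are not among the 10, 21 passed the filter. At ZT20 the Rev-erbα-/- livers lay above wild-type without overlap in 7 of these and below it in 3. Of all tested genes, 22.5% had groups that did not overlap at ZT20, in either direction. The pseudogene Mup-ps7 had 0 reads in the wild-type and 69 in the Rev-erbα-/- libraries at ZT20, and Mup-ps6 had 0 and 48. On the other side, Mup-ps4 had 67 reads in wild-type and 0 in Rev-erbα-/- livers at ZT20, and Mup13 34 and 14 and Mup8 2057 and 990 reads. Unlike Mup9, Mup8 overlapped between genotypes at ZT8. Mup-ps4, Mup-ps6 and Mup-ps7 passed the filter through groups other than the one with 0 reads. At ZT8, Mup-ps13 rose by 0.91 ± 0.16 (log2, edgeR adjusted p = 0.00258) and Mup-ps20 changed by -2.78 ± 0.61 (adjusted p = 0.0107), while 0 of the 10 other numbered copies tested passed (0 also at an unadjusted p below 0.05 in edgeR and 0 by DESeq2). Averaged over genotypes, 19 of the 21 had a log2 change of -1 or lower from ZT8 to ZT20, against 2.33% of all tested genes. This is again given with no test, and nothing is read from either share.

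Among the numbered symbols of these, Mup17 was at 7945 ± 6636 CPM in wild-type and 2255 ± 1209 CPM in Rev-erbα-/- livers at ZT8, and at 62.1 ± 18.4 and 94.4 ± 37.2 CPM at ZT20 (log2 change averaged over genotypes -5.79 ± 0.78). The mean levels of Mup2, Mup15, Mup16 and Mup18 were also lower at ZT20, and their genotypes overlapped at both times. Mup6 was near 1 CPM in all groups, and Mup19 was too low to be tested. Mup-ps22, which lies on chromosome 11 outside the cluster, was at 2001 ± 175 CPM in wild-type and 1786 ± 257 CPM in Rev-erbα-/- livers at ZT20, with overlapping groups. The remaining pseudogenes were Mup-ps12, Mup-ps14, Mup-ps15, Mup-ps16 and Mup-ps19, which passed the filter, and Mup-ps1, Mup-ps2, Mup-ps3, Mup-ps5, Mup-ps8, Mup-ps9, Mup-ps10, Mup-ps11, Mup-ps17, Mup-ps18 and Mup-ps21, which did not.

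The mRNA of genes tied to the hormone pathways named above and to sex-biased liver expression was followed in 4 lists of 36 genes. The hormone signals themselves were not measured in these libraries. In growth hormone and steroid signalling, 3 of 10 genes rose in Rev-erbα-/- livers at ZT8, against 4.4% of all tested genes. At ZT20, 2 of the 10 fell, against 1.54% of all tested genes lower and 2.09% higher at that time. Stat5a, which relays growth hormone receptor signals, was at 9.79, 10.7 and 12.0 CPM in wild-type and 15.6, 17.6 and 20.7 CPM in Rev-erbα-/- livers at ZT8 (log2 0.73, edgeR adjusted p = 0.00125), and at 21.0, 19.5 and 20.7 CPM in wild-type against 12.8, 15.0 and 15.7 CPM in knockout livers at ZT20 (log2 -0.49, adjusted p = 0.0261). Its genotype difference thus turned with time, and the test of the change itself (5.88% of all tested genes passed it) gave a log2 value of -1.22 (edgeR adjusted p = 0.000349).

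Stat5b, the STAT of the male growth hormone pattern, was at 76.6, 82.9 and 89.0 CPM in wild-type and 68.6, 68.1 and 62.1 CPM in Rev-erbα-/- livers at ZT20 (log2 -0.32, edgeR adjusted p = 0.0249) and did not pass at ZT8. Igf1, the circulating growth factor that growth hormone induces, rose by 0.44 (log2) at ZT8 (edgeR adjusted p = 0.0114), and its carrier subunit Igfals by 0.36 (adjusted p = 0.0274). The receptors Ghr and Nr3c1 did not pass at ZT8 or ZT20. The call of Stat5a at ZT20 was lost in 5 of 12 fits without 1 library (edgeR adjusted p up to 0.106), that of Stat5b in 4 (up to 0.114), that of Igf1 at ZT8 in 1 (0.0553 without wild-type ZT8 liver 2) and that of Igfals in 4 (up to 0.0807).

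Of 8 transcription factors of sex-biased liver genes, Hnf4a, a master regulator of hepatocytes, rose at ZT8 by 0.35 (log2, edgeR adjusted p = 0.0366), a call lost in 7 of 12 fits without 1 library (adjusted p up to 0.117), and 0 passed at ZT20 (edgeR, with 1 at an unadjusted p below 0.05, and 0 by DESeq2). Of 10 male-biased liver genes, 3 rose at ZT8, against 4.4% of all tested genes. Elovl3, a fatty acid elongase, was at 79.1, 63.8 and 49.9 CPM in wild-type and 216, 275 and 289 CPM in Rev-erbα-/- livers at ZT8 (log2 2.02, edgeR adjusted p = 5.66e-05). Hsd3b5, a hydroxysteroid dehydrogenase, rose by 0.34 (adjusted p = 0.0374) and Slco1a1, an organic anion transporter, by 0.43 (adjusted p = 0.036). The last 2 calls were lost in 7 and 6 of 12 fits without 1 library (adjusted p up to 0.149 and 0.164).

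At ZT20, Cyp7b1, an oxysterol hydroxylase of males, was the only male-biased gene past the threshold, with 482, 444 and 439.6 CPM in wild-type and 879, 678 and 735 CPM in Rev-erbα-/- livers (log2 0.75, edgeR adjusted p = 0.00275). Moxd1, a further male-biased gene, was at 0.512, 0.221 and 0.0447 CPM in wild-type against 17.6, 2.65 and 0.178 CPM in knockout livers (adjusted p = 0.355). Of 8 female-biased liver genes, 7 were too low to be tested, for example Cyp2b9 and Sult3a1. Acot3 was at 4.89, 3.19 and 1.88 CPM in wild-type and 0.312, 0.389 and 0.441 CPM in Rev-erbα-/- livers at ZT8 (log2 -3.12, edgeR adjusted p = 0.0153), and was lost without Rev-erbα-/- ZT8 liver 1 (0.0689) or 2 (0.0666).

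With time, 7 of the 29 tested genes of the 4 lists were higher and 7 lower at ZT20, averaged over genotypes, against 16.6% of tested genes in each direction. In signalling, Stat5a (log2 0.30) and Igfals (0.30) were among those that rose, and Socs2, the feedback inhibitor of growth hormone signals, fell (-2.10, edgeR adjusted p = 0.0126). Socs2 overlapped between the times in wild-type livers, with 4.78, 33.8 and 57.9 CPM at ZT8 and 7.95, 9.46 and 10.6 CPM at ZT20. In Rev-erbα-/- livers it did not. Among the factors, Zhx2 rose (0.21) and Cebpb (-0.75), Cebpa (-0.39) and Hnf4a (-0.20) fell. Among male-biased genes, Elovl3 (2.60) and Cyp4a12a (0.38) rose and Moxd1 (-7.32), Hsd3b5 (-0.94) and Cyp7b1 (-0.60) fell, and Acot3 (1.43) rose. The median over the 29 genes was -0.013. These averages do not always hold within each genotype. The log2 change, wild-type first, was 0.92 and -0.31 for Stat5a, 0.05 and -0.45 for Hnf4a, and -0.01 and 2.87 for Acot3. It had the same direction in both genotypes for Elovl3 (3.46 and 1.74) and Hsd3b5 (-0.90 and -0.98), for example.

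The genes next to the cluster were compared in the same way. Of the 25 nearest protein-coding genes on each side, 34 of 50 were tested. In Rev-erbα-/- livers at ZT20 1 fell, against 1.54% of all tested genes, while 0 rose (edgeR, with 2 at an unadjusted p below 0.05, and 0 by DESeq2). The median log2 difference was -0.0019. The gene that fell was Alad, which encodes an enzyme of heme synthesis and lies 358 kb beyond the cluster. It was at 279.9, 243 and 256 CPM in wild-type and 116, 117 and 129 CPM in Rev-erbα-/- livers at ZT20 (log2 -1.11, edgeR adjusted p = 0.0131). The call was lost without wild-type ZT20 liver 1 (0.0554) or Rev-erbα-/- ZT20 liver 1 (0.0584) or 2 (0.0610). At ZT8, 4 neighbours fell, namely the acute-phase genes Orm1, Orm2 and Orm3 and Ugcg, as did 4.04% of all tested genes. Each call was lost in 7 to 10 of 12 fits without 1 library. Orm2 was at 9.51, 313 and 425 CPM in wild-type against 6.80, 7.33 and 7.00 CPM in Rev-erbα-/- livers. Orm3 was at 1.19, 10.4 and 13.4 CPM against 0.415, 0.778 and 0.490 CPM. In these and in Orm1, wild-type liver 1 was the wild-type liver nearest to the Rev-erbα-/- livers, and in Ugcg the genotypes overlapped.

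The genotype difference of 4 of the 34 neighbours was lower at ZT20 than at ZT8 by the test of the change itself, as in 3.05% of all tested genes, and these 4 are named after their values were seen. Bspry was at 0.517, 0.0996 and 0.153 CPM in wild-type and 0.571, 0.778 and 0.832 CPM in Rev-erbα-/- livers at ZT8, and at 0.837, 0.575 and 1.21 CPM in wild-type and 0.210, 0.156 and 0.445 CPM in Rev-erbα-/- livers at ZT20. Hdhd3, which lies beyond the cluster as Bspry and Alad do, was at 23.3, 14.5 and 7.98 CPM in wild-type and 31.1, 32.2 and 32.0 CPM in Rev-erbα-/- livers at ZT8, and at 55.5, 46.0 and 43.6 CPM in wild-type and 22.4, 24.5 and 28.9 CPM in Rev-erbα-/- livers at ZT20. In both, and in Hsdl2 on the other side, the Rev-erbα-/- livers lay above wild-type at ZT8 and below it at ZT20 without overlap, the order seen in Mup9, Mup10 and Mup5. The log2 value of the change was -3.09 for Bspry (edgeR adjusted p = 0.0204), -1.98 for Hdhd3 (adjusted p = 0.0277), -1.25 for Alad (adjusted p = 0.028) and -0.40 for Hsdl2 (adjusted p = 0.0307), and these calls were lost in 3, 8, 10 and 7 of 12 fits without 1 library.

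**Figure D5:**
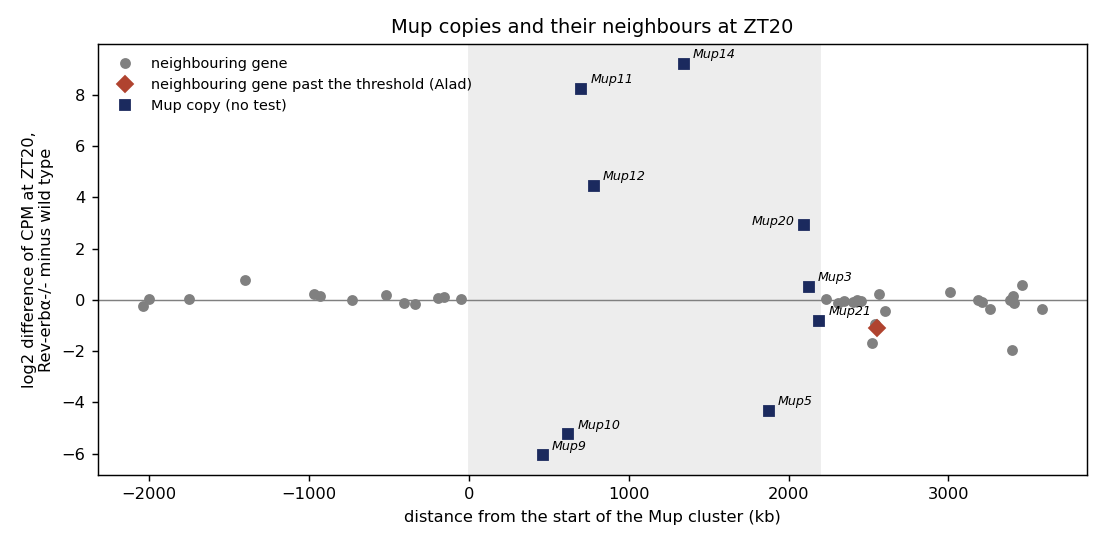
Log2 difference of CPM between Rev-erbα-/- and wild-type livers at ZT20 (y axis) against distance from the start of the Mup cluster in kb (x axis), for 9 Mup copies (squares) and the 34 tested neighbours (circles, and a diamond for Alad, the only one past the threshold). The shaded band is the cluster, whose copies reach from -6.06 to 9.22, while the neighbours range between -1.97 and 0.77.

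Outside the family, the 5 genes whose levels were most like Mup14, the copy with the largest difference at ZT20, were Rps3a1 (Pearson's r = 0.978 over 12 libraries), Acp1 (0.975), Rps3a2 (0.975), Plbd1 (0.966) and Synj2 (0.965), out of 12662 candidates. Rps3a1, a ribosomal protein gene, averaged 28.0 CPM in wild-type livers at ZT8, 27.0 CPM in Rev-erbα-/- livers at that time and 29.5 CPM at ZT20, and 0.934 CPM in wild-type livers at ZT20. Rps3a2 averaged 4.37 CPM in wild-type and 4.17 CPM in Rev-erbα-/- livers at ZT8, and 0 and 4.90 CPM at ZT20. For these 2 rows the share of unique sequence and the copies carried were not examined, so they are uncertain as levels of single genes. Acp1, a small phosphatase, averaged 3.81 CPM in wild-type livers at ZT20 and 22.9 to 27.9 CPM in the other groups. Most like the summed Mup level were Atxn7 (0.976), Rhbdd2 (0.975), Ung (0.969), P2rx7 (0.964) and Klhl33 (0.957). With 4 groups behind the 12 libraries, such values describe a shared order of the groups.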

How the data were processed

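Poly(A) RNA from 12 mouse livers was sequenced (HiSeq2000, reads of up to 75 bases). The authors mapped the reads to mm10 with TopHat, used HTSeq-count in its union mode, with strand ignored and alignments below quality 10 dropped, to count unique reads by gene symbol, and deposited raw counts, without normalization or pooling. Their own comparisons, made with DESeq2 1.6.3, are not used.

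Groups and replicate numbers were taken from the sample labels. Counts were filtered with filterByExpr (14488 genes left), scaled by TMM and fitted with edgeR 4.0.16 under R 4.3.3 (glmQLFit with robust dispersion, glmQLFTest) as 4 group means over 12 samples. Benjamini-Hochberg adjustment was made over all tested genes, with a threshold of 0.05. The fit was tested on simulated data. A test of time averaged over genotypes was planned for the Mup copies too and is not reported, since the low values at ZT20 that chose the copies enter it. Replicates are separate livers, and no pair agreed within sampling noise. Same-numbered replicates did not deviate together.

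The members and lists were chosen with earlier results of these data known. Named genes are the 10 copies, all other Mup symbols, list genes past the threshold (up to 5 per list and contrast by size), neighbours past the threshold at ZT20, and the 5 genes most correlated with Mup14 and with the summed Mup level (log2 of CPM plus 0.5, mean CPM of at least 1). Sequences, positions and unique windows come from GENCODE M21 on GRCm38, the build of the counts, with 1 transcript per gene, aligned with MAFFT, and promoters from RefSeq. TATATAA was chosen after the promoters were seen. Alternatives were DESeq2 1.42.0, its size factors in edgeR, no filter, the replicate number as a block, only the 6 samples of a time point, leaving out each library, and other totals for the shares. The values of 1 gene of the signalling list, which stays in the counts of that list, are not reported here.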

Additional observations from a re-analysis of the deposited data

Results flagged for a closer look

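In 4 of the 10 copies and in 2 of the 21 other Mup rows that passed the filter, all Rev-erbα-/- livers lay on one side of wild-type at ZT8 and on the other side at ZT20, as in 3.17% of all tested genes. The difference between the times was not tested for these rows, since ZT20 values were used to choose the family. The log2 genotype difference at ZT20 minus that at ZT8 was -6.15 for Mup5, -7.45 for Mup9, -6.58 for Mup10, 3.36 for Mup20, -2.0 for Mup13 and -9.38 for Mup-ps4, the last against a group with 0 reads, so that its size depends on the fit's prior count.

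Among the genes of the hormone and sex-bias lists, the same difference passed the edgeR test in 4 of 29, against 5.88% of all tested genes. It was -1.22 for Stat5a (edgeR adjusted p = 0.000349), -0.51 for Stat5b (adjusted p = 0.00882), -1.72 for Elovl3 (adjusted p = 0.00223) and -0.50 for Hnf4a (adjusted p = 0.0415). The first 3 remained past the threshold in each of 16 alternatives, and Hnf4a was lost in 10 of them (adjusted p up to 0.111).

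Among the 34 tested neighbours of the cluster it passed in 4, with -3.09 for Bspry, -1.98 for Hdhd3, -1.25 for Alad and -0.40 for Hsdl2, and all 4 calls were lost in some fits without 1 library.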

How the results depend on the processing

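The main count of copies past the threshold was 4 at ZT8, 7 copies had a log2 change of at least 1 in size with time averaged over genotypes and 7 a log2 difference of that size at ZT20, and 3 pathway genes passed at ZT20. With the replicate number as a block, these counts were 3, 7, 7 and 3, with Mup9 lost at ZT8 (edgeR adjusted p = 0.0653), and the calls of all genes numbered 1210 at ZT8, 479 at ZT20 and 4663 for time. The block stands for a number alone, since deviations of same-numbered libraries correlated at -0.018 on average and 1 of 12 libraries correlated best with its own number. Without a filter Mup9 was lost at ZT8 (0.0653), and with only the 6 samples of ZT8 Mup5 was lost (0.0848), pathway genes past the threshold numbered 3 in place of 8, and all genes 769 in place of 1224. DESeq2 called 5 pathway genes at ZT20 in place of 3. When 1 library was left out, 1 to 4 copies passed at ZT8, 6 or 7 had a log2 change of at least 1 in size with time, and 7 or 8 a difference of that size at ZT20. Pathway genes then numbered 3 to 8 at ZT8, 10 to 15 for time and 1 to 3 at ZT20, and all genes 542 to 1811, 4060 to 5092 and 239 to 656. The direction turned for Mup3 and Mup12, whose differences are near 0. Mup3 at ZT8 ranged from -0.091 to 0.13 and became -0.0093 and -0.027 without wild-type liver 2 and 3 and -0.091 without Rev-erbα-/- liver 1, and its change with time ranged from -0.016 to 0.091 and became -0.0093 without Rev-erbα-/- ZT8 liver 3 and -0.016 without Rev-erbα-/- ZT20 liver 1. Mup12 at ZT8 ranged from -0.0495 (without wild-type liver 1) to 0.21. The cause was not tested. The share of Mup3, 47.8% of reads on numbered symbols on average over 12 livers, was 63.7% of reads on the 10 copies and 39.2% of reads on all 43 symbols, a total chosen after seeing the data. Depth limits Mup4, Mup5 and Mup10 most.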
